A study of Mus musculus with 2 samples.

Results

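Cystatins are small proteins that plug the active site of papain-like cysteine proteases, above all the lysosomal cathepsins, and so limit protein breakdown inside and outside cells. Secreted members such as cystatin C act in body fluids, whereas cystatin B, a stefin, stays inside the cell. A further branch, the group around Cst8 (CRES, cystatin-related epididymal spermatogenic), is made mainly in testis and epididymis, and several of its members lack residues that other cystatins use to hold papain-like enzymes. The mouse genes described here are Cst8, Cst9, Cst11, Cst12 and Cst13, which belong to that reproductive branch, the widely expressed Cst3 and Cstb, and Cst6 and Cst7, which are known from skin and from leukocytes. These 9 genes were looked up by symbol among the 43346 mouse gene identifiers of the expression tables, and all 9 were present.

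Both libraries were made from polyadenylated RNA of adipose tissue from a single male C57BL/6J mouse, adult and 10 weeks old, and share 1 biosample. Library 2, the second technical library, was performed in 2015, and library 1 belongs to work published in 2014. The labels name no fat depot, treatment or mutation, and there was no control group. Every SD below is technical spread (n = 2, from a single biosample), and a difference between libraries cannot be told apart from one between dates.

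Expected counts assigned to mouse genes summed to 19256807 in library 2, against 19954869 in library 1. Adipocyte markers were all present, with 10 of 10 listed genes at 1 TPM (transcript abundance scaled for length and depth) or more in each library and summed levels of 16139 TPM in library 2, against 7704 TPM in library 1. Among the highest of them, Fabp4 was at 6105 TPM in library 2, against 4072 TPM in library 1. Cfd was at 4561 and 69.3 TPM, whereas Lpl was at 1422 and 1690 TPM. Markers of the epididymis were present too: 10 of 10 were at 1 TPM or more, and they summed to 42439 TPM in library 2, against 37133 TPM in library 1. Among the highest of these, Gpx5 was at 15610 TPM in library 2, against 14177 TPM in library 1. Lcn5 was at 7167 and 2402 TPM, whereas Crisp1 was at 4053 and 6982 TPM. Genes within a list thus differed in direction, and ratios between the libraries moved with GC content (below), so these sums do not measure cell content. Mitochondrial genes and their copies on chromosome 1 took 15.9% of TPM in library 2, against 51.7% in library 1, and a larger such share leaves less TPM for the rest. In bulk tissue, fewer cells of a type and less RNA per cell cannot be told apart.

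Of the 9 genes, 7 lie on chromosome 2, and 6 of these (Cst11, Cst12, Cst8, Cst13, Cst9 and Cst3) fall in a stretch of 125 kb from Cstl1 to Cst3 (mm10). Upstream sequences from RefSeq (GRCm38.p6), each running from 250 bases before to 50 bases after the annotated start, were found for 6 of the 9. Those of 2 abundant reproductive genes, 1 scarce neighbour and the widely expressed Cst3 are shown because these genes share a locus but differ in class or in level. Capitals mark matches, on either strand, to TATAAA, to the GC box GGGCGG, to the androgen receptor half-site AGAACA and to the C/EBP core TTGCNNAA.
Cst8, chr2:148798589-148798888, plus strand: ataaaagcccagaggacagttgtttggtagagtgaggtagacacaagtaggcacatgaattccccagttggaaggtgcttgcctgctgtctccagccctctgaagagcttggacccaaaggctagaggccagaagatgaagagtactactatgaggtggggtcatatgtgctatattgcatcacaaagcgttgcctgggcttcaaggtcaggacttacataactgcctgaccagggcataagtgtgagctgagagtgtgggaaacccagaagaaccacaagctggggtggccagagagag
Cst12, chr2:148789115-148789414, plus strand: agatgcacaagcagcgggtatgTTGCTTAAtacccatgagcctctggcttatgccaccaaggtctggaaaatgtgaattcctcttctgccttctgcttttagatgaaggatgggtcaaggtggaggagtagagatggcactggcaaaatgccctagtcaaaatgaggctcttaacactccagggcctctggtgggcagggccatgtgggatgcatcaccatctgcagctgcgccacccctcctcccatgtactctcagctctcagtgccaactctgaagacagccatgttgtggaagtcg
Cst9, chr2:148834897-148835196, plus strand: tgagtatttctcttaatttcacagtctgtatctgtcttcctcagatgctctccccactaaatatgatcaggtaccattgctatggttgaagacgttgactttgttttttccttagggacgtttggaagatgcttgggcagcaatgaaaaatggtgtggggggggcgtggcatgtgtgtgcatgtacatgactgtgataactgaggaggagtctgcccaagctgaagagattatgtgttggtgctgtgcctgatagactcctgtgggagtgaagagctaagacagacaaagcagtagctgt
Cst3, chr2:148875463-148875762, minus strand: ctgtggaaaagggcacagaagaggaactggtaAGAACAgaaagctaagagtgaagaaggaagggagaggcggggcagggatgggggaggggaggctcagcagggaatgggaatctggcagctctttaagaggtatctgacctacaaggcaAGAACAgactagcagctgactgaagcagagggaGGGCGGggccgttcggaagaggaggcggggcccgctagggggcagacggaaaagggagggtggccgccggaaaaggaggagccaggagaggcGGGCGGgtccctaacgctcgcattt

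The Cst3 window stood apart from those of the other members in base composition. It had a GC content of 60.3% and 13 CG dinucleotides, against 51.0% and 1 for Cst8, 52.7% and 3 for Cst12, and 46.0% and 3 for Cst9. The Cst13 window, not printed, had 47.3% and 0, and that of Cst7 53.3% and 5. The median over 32851 windows of this length was 52.7% GC (interquartile range 45.7% to 61.7%) and 7 CG dinucleotides (3 to 20). The Cst3 window lay within both ranges, whereas Cst8 and Cst13 lay below that of CG dinucleotides. Cst3 alone of the 6 held GC boxes, 2 of them, and 35.7% of all windows held at least 1. It also held 2 AGAACA matches, a motif found in 19.0% of windows. TTGCNNAA occurred once in Cst12 and once in Cst7 (10.8% of windows), TATAAA once in Cst13 on the strand opposite to the gene (13.6% of windows), and Cst8 and Cst9 held none of the 4 motifs. No matches overlapped. These are matches of letters only, and no binding was measured.

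Cst11, Cst8 and Cst12 were among the more abundant transcripts of both libraries. Cst11, a secreted CRES-like cystatin of the epididymis, was at 2891 TPM in library 2, against 2684 TPM in library 1 (2787 ± 146 TPM, SD, n = 2). This placed it 38th of all genes in library 2 and 34th in library 1. It lies on chromosome 2, 148768609 to 148771497, on the minus strand (ENSMUSG00000036958), and its single annotated transcript took 16673 counts in library 2, against 19634 in library 1. Cst8 (ENSMUSG00000027442, 148798785 to 148805595, plus strand) was at 1130 TPM in library 2, against 1222 TPM in library 1, or 1176 ± 64.8 TPM, from 8818 counts in library 2, against 10396 in library 1. Cst12 (ENSMUSG00000027443, 148789361 to 148793546, plus strand), a cystatin of testis and epididymis, was at 880.4 TPM in library 2, against 547 TPM in library 1, or 714 ± 236 TPM, from 4293 counts in library 2, against 3449 in library 1. Cst8 ranked 110th of all genes in library 2 and 55th in library 1, and Cst12 ranked 154th and 109th. The order Cst11, Cst8, Cst12 held in both libraries, and the ranges of these 3 genes did not overlap. The step from Cst11 to Cst8 was similar in both, 2.56 times in library 2 and 2.197 times in library 1. That from Cst8 to Cst12 was 1.28 times in library 2 and 2.23 times in library 1.

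The other reproductive genes were scarce. Cst9 (ENSMUSG00000027445), which encodes testatin, a protein named for the fetal testis, had 34 counts in library 2, against 33 in library 1. These counts correspond to 5.05 TPM (95% exact Poisson interval 3.497 to 7.06) in library 2, against 3.86 TPM (2.66 to 5.42) in library 1. Cst13 (ENSMUSG00000036924), or cystatin T, a gene of the testis, had 13 counts in library 2, against 15 in library 1. Its level was 1.62 TPM (0.863 to 2.77) in library 2, against 1.47 TPM (0.823 to 2.42) in library 1. The intervals of Cst9 and Cst13 did not overlap within either library. Cst12 stood 174 times above Cst9 in library 2, against 142 times in library 1, so that the branch was split into 3 abundant and 2 scarce genes.

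**Figure D1:**
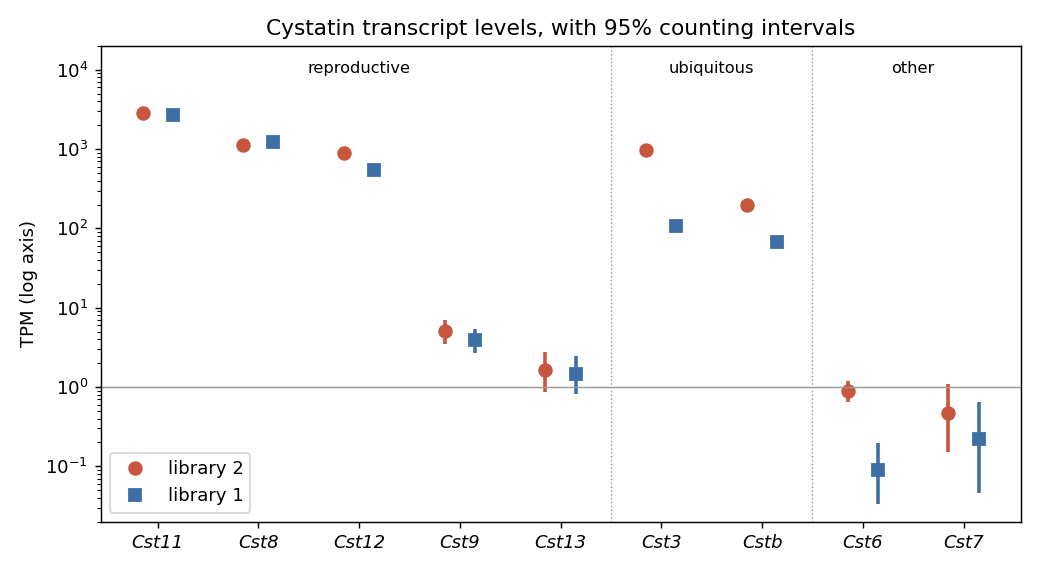
TPM of the 9 cystatin genes on a log axis, grouped by class, in library 2 (circles) and library 1 (squares), with bars for the 95% Poisson interval of the count. Cst11, Cst8 and Cst12 sat between 547 and 2891 TPM in both libraries, Cst9 and Cst13 between 1.47 and 5.05 TPM, and Cst3 was at 974 TPM in library 2, against 106 TPM in library 1.

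Abundant and scarce genes were interspersed along the locus. From Cstl1 at one end to Cst3 at the other, the 9 annotated genes of the stretch all belong to the cystatin family or are named for its domain in RefSeq. Cstl1 was at 3.25 TPM in library 2, against 1.19 TPM in library 1, next to Cst11, whose level was among the highest of the stretch. 8030411F24Rik (Cstdc1 in RefSeq), between Cst11 and Cst12, was at 1.79 TPM in library 2, against 1.27 TPM in library 1. Cst13 and Cst9 follow Cst8 on the same strand, with 14485 bases between Cst8 and Cst13, and both were under 6 TPM. Beyond them 9230104L09Rik (Cstdc2 in RefSeq), on the minus strand, reached 2889 TPM in library 2, against 4073 TPM in library 1. That is close to Cst11 in library 2 and above it in library 1. Of the 9 genes, 5 were thus above 100 TPM in both libraries and 4 at no more than 5.05 TPM in either. All of them held whole-number counts in both libraries (within 0.005), so no estimated split of reads between genes entered their values. Among the main transcripts of Cst8, Cst9, Cst11, Cst12, Cst13, Cst3, Cstb, Cst6 and Cst7, the longest run of identical bases between any 2 was 15. Cstl1, 8030411F24Rik and 9230104L09Rik were not compared in this way.

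**Figure D2:**
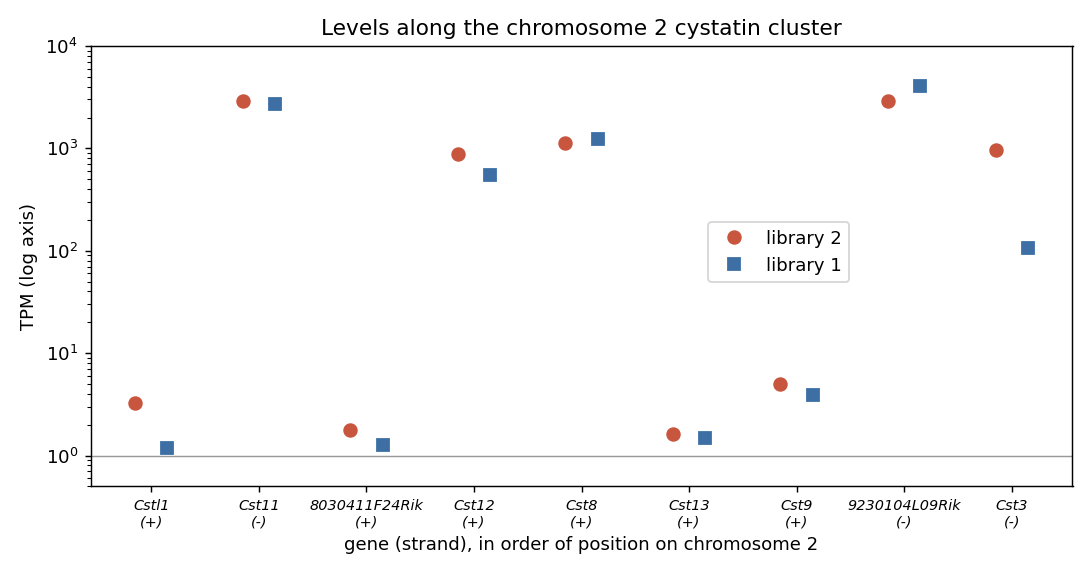
TPM on a log axis for the 9 genes of the chromosome 2 stretch, in order of position with strand in parentheses, in library 2 (circles) and library 1 (squares). Cst11, Cst12, Cst8, 9230104L09Rik and Cst3 lay above 100 TPM in both libraries, whereas Cstl1, 8030411F24Rik, Cst13 and Cst9 lay between 1.19 and 5.05 TPM.

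The widely expressed members were lower than Cst11 and Cst8 in both libraries, and their TPM as deposited differed more between the libraries. For Cstb against Cst8 this did not hold when TPM was rescaled without mitochondrial genes and their copies. Cstb then stood at 232 in library 2, against 141 in library 1, and Cst8 at 1343 in library 2, against 2529 in library 1. Cst3 (ENSMUSG00000027447, 148871722 to 148875692, minus strand) encodes cystatin C, a secreted inhibitor of cathepsins found in most body fluids. It was at 974 TPM in library 2, against 106 TPM in library 1 (539.8 ± 614 TPM), and its counts were 8802 in library 2, against 1216 in library 1. Cstb (ENSMUSG00000005054, chromosome 10, 78425669 to 78427622), whose product cystatin B guards the cytosol and nucleus against cathepsins, was at 195 TPM in library 2, against 68.2 TPM in library 1 (131 ± 89.6 TPM), with 1082 counts in library 2, against 480 in library 1. Cst3 lay above Cst12 in library 2 and below it in library 1, so the order of these genes does not hold beyond their spread. Cst3 stood 4.998 times above Cstb in library 2 and 1.56 times in library 1.

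The remaining genes were near the limit of detection. Cst6 (ENSMUSG00000024846, chromosome 19, 5344705 to 5349574), for cystatin E/M, which regulates legumain and cathepsins in the epidermis and hair follicle, had 45 counts in library 2, against 6 in library 1. That is 0.89 TPM (0.649 to 1.19) in library 2, against 0.09 TPM (0.033 to 0.196) in library 1. Cst7 (ENSMUSG00000068129, chromosome 2, 150570415 to 150578944), for cystatin F, an inhibitor kept in the endosomes and lysosomes of leukocytes, had 5 counts in library 2, against 3 in library 1, or 0.47 TPM (0.153 to 1.097) and 0.22 TPM (0.0454 to 0.643). The intervals of Cst6 and Cst7 overlapped in both libraries, and each of them overlapped that of Cst13 in library 2. Of the 9 genes, 7 reached 1 TPM in each library and 2 stayed below it in both.

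Summed over the 9 genes, which leave out 9230104L09Rik (2889 TPM in library 2, against 4073 TPM in library 1), reproductive transcripts outweighed the others. The 9 genes made up 6078 TPM in library 2, against 4633 TPM in library 1, or 0.608% and 0.463% of all TPM. The 5 reproductive genes held 80.8% of this in library 2 and 96.2% in library 1 (88.5% ± 10.9, SD, n = 2). Cst11 alone held 47.6% in library 2, against 57.9% in library 1. Cst3 and Cstb together held 19.2% in library 2, against 3.76% in library 1, and Cst6 and Cst7 held 0.0224% and 0.0067%. When TPM was rescaled without mitochondrial genes and their copies, the sum of the 9 genes was 7224 in library 2, against 9591 in library 1, so its direction between the libraries turned. The means of Cst11, Cst8 and Cst12 then came to 4496, 1936 and 1089.8. The shares among the 9 genes do not depend on that rescaling.

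Markers of the cells in which these genes are known were measured beside them, and their part in the levels, like that of the epididymal genes given above, was not tested. Testis germ cell genes, of which 10 of 10 reached 1 TPM in each library, summed to 1488 TPM in library 2, against 308 TPM in library 1. Sertoli cell genes summed to 54.1 TPM in library 2, against 30.3 TPM in library 1, with 3 of 8 at 1 TPM or more in both. Of these, Cldn11 was at 18.2 TPM in library 2, against 14.8 TPM in library 1, Inha at 17.4 and 1.73 TPM, and Sox9 at 15.4 and 12.9 TPM. By contrast, Amh had 3 counts in library 2, against 0 in library 1, and Fshr 0 and 1. Macrophage genes summed to 849.6 TPM in library 2, against 287 TPM in library 1, with 9 of 9 at 1 TPM or more. Lyz2 held 448 and 173 TPM of this, whereas Mrc1 went the other way at 25.75 and 42.06 TPM. Cytotoxic lymphocyte genes summed to 122 TPM in library 2, against 127 TPM in library 1, with 4 of 7 at 1 TPM or more, and Klrb1c alone held 114 and 119 TPM of this. Stratified epithelium genes summed to 66.96 TPM in library 2, against 4.99 TPM in library 1, with 2 of 8 at 1 TPM or more in both. Krt5 was at 32.4 TPM in library 2, against 3.01 TPM in library 1, and Krt14 at 29.0 and 0.18 TPM, whereas Krt1 and Ivl had 0 counts in both.

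Between the libraries, Cst3 and Cst6 were called higher in library 2, and none of the 8 tested members was called lower. Counts were scaled by the TMM method of edgeR and compared by a two-sided exact binomial test with Benjamini-Hochberg adjustment over 18261 genes, where a call needs an adjusted p below 0.05 and at least a 2-fold difference. This test compares 2 libraries, covers counting error only and has no replicate check. Of the 8 members with at least 10 counts in sum, 2 were called higher and 0 lower, against backgrounds of 30.2% and 18.6% of all genes tested. Cst7 had too few counts to be tested. With so few members, these counts do not set the family apart from the background.

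Cst3 was higher in library 2, at a log2 ratio of 2.47 (exact 95% bounds 2.38 and 2.56). Cst6 was higher by 2.42 (1.29 to 4.04; adjusted p = 2.53e-06, exact binomial test). Cstb stood at 0.78 (0.63 to 0.94), short of 2-fold, but passed 2-fold at 1.22 when scaled to total counts. Cst11 stood at -0.62 (-0.65 to -0.59) and Cst8 at -0.62 (-0.67 to -0.58), the same to the second decimal. Cst12 stood at -0.07 (-0.14 to -0.01), and its interval did not overlap those of Cst8 and Cst11. Cst9 at -0.34 (-1.08 to 0.39) and Cst13 at -0.59 (-1.78 to 0.58) had intervals that cover both 0 and the value of Cst8. TPM as deposited went the other way for Cst11, Cst12, Cst9 and Cst13. By TPM, library 2 stood at 1.08, 1.61, 1.31 and 1.10 times library 1 for these genes, and at 0.925 times for Cst8. The direction of these 4 genes between the libraries thus depends on the measure.

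Ratios between the libraries moved with the GC content of the transcripts. Over all genes with at least 100 counts on average, the median log2 ratio was -1.15 under 45% GC, -0.43 from 45% to 50%, 0.77 from 50% to 55%, and 2.67 at 55% or more. Cst8, Cst11 and Cst12 have 45.9%, 46.2% and 45.7% GC, and their ratios lie within the interquartile range of their band, -0.77 to -0.02. Cst3, with 55.4% GC, lies within the 1.75 to 3.76 of its own. The ratios of the other 4 lie above the interquartile range of their bands. Cstb, with 49.3% GC, stood at 0.78, above the -0.02 that bounds the same band as Cst8. Cst9 and Cst13, both with 44.7% GC, stood at -0.34 and -0.59, above the -1.40 to -0.89 of the band under 45%. Cst6 has 52.9% GC, and its ratio of 2.42 lies above the 0.20 to 1.48 of its band, but its exact interval (1.29 to 4.04) reaches into that range. Cst6, Cst9 and Cst13 have fewer counts than the genes that make up the bands, and the intervals of Cst9 and Cst13 given above reach into their band too. With the GC trend removed, Cst3 stood at 0.50 and was not called, and Cst6 at 1.502 was the 1 member still called, against backgrounds of 9.69% of genes called higher and 8.62% lower. Cst8 and Cst11 then stood at 0.05 each, Cst12 at 0.71 and Cstb at 0.93. Whether GC content accounts for the differences between the libraries was not tested.

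**Figure D3:**
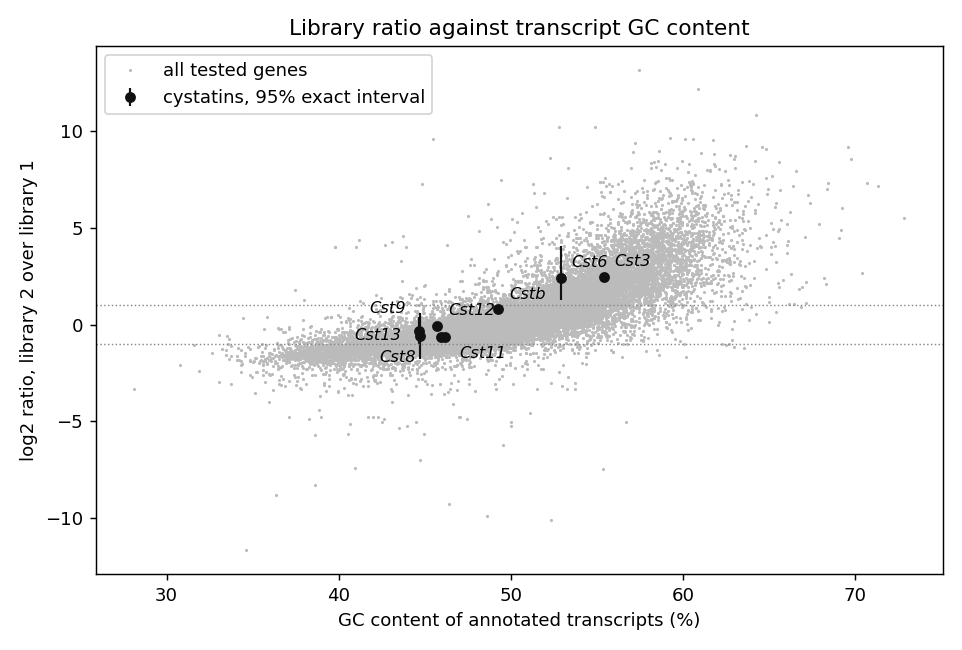
Log2 ratio of library 2 over library 1 against the GC content of annotated transcripts, for 18261 tested genes (grey) and the 8 tested cystatins (black, with 95% exact intervals). Dotted lines mark a 2-fold difference, and Cst3 at 2.47 and Cst6 at 2.42 lie above the upper line at 55.4% and 52.9% GC.

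The libraries also differed in which Cst8 transcript was counted. The main coding transcript (ENSMUST00000028931), of 768 bases with 4 exons, took 99.3% of the gene's TPM in library 2, against 67.3% in library 1. A short transcript (ENSMUST00000154737), of 507 bases and annotated without a coding part, took 0.40% in library 2, against 32.0% in library 1, from 19.4 and 2139 estimated counts. The posterior standard deviation that the authors deposited for these counts was 7.6 in library 2, against 107 in library 1. Another coding transcript took 0.32% in library 2, against 0.69% in library 1. The short transcript joins the first exon to a site 143 bases inside the exon where translation of the main one begins, and starts 118 bases later. All 507 of its bases are also in the main transcript, so reads that lie within the shared exons cannot tell the transcripts apart. The joins are shown with 15 bases on either side, the first exon in lower case and the next exon in capitals (mm10, GENCODE M21, plus strand).
Main coding transcript, chr2:148798931 to 148799888: gagagtcacagaaagTTCGACAGACCTACA
Short transcript, chr2:148798931 to 148800031: gagagtcacagaaagTGGCCCTGGCAGTTG
The coding bases that the short transcript leaves out, with the start codon in capitals, chr2:148799985-148800030: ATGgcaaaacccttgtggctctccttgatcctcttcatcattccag

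Those 46 coding bases include the annotated start codon. The 143 bases left out of the exon that holds this codon have a GC content of 49.7%, against 46.9% for the whole main transcript. A difference of this size between the libraries was not rare: of 2018 genes with several transcripts and at least 1000 counts in each library, 473, or 23.4%, had a transcript whose share differed by as much as the 32.0 points of Cst8. The median over these genes was 14.1 points. Because a shorter transcript lowers the length used for the gene, the TPM of Cst8 in library 1 depends on this split, whereas its count of 10396 does not.

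**Figure D4:**
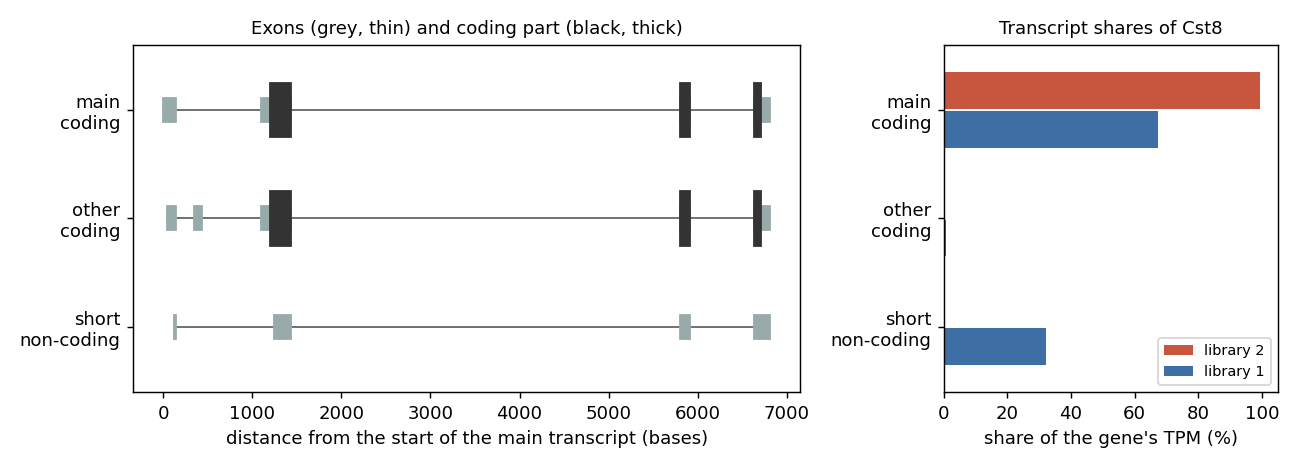
Left, exons (grey) and coding parts (black) of the 3 Cst8 transcripts against distance in bases from the start of the main one. Right, each transcript's share of the gene's TPM in percent: the main transcript took 99.3% in library 2 (upper bars) and 67.3% in library 1 (lower bars), and the short one took 0.40% and 32.0%.

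In the other members 1 transcript dominated. The leading Cst12 transcript took 97.7% of the gene's TPM in library 2, against 90.2% in library 1, and another, which ends 109 bases further downstream and shares 535 bases with it, took the rest. The leading Cst3 transcript took 99.5% in library 2, against 97.96% in library 1. A transcript annotated without a coding part held 0.46% of Cst3 in library 2, against 2.04% in library 1, and the remaining coding transcript held 0 counts in both. Cst6, Cst7, Cst9, Cst11, Cst13 and Cstb each have a single transcript in these tables. None of the 7 detected members had more than 1 transcript at 10% or more in both libraries, and Cst8 had it in library 1 alone. The coding parts are alike in size. Those of the secreted members span 137 to 149 codons (Cst9 shortest, Cst6 longest), and that of Cstb 98.

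Most other genes of the cystatin superfamily were at or near 0. Of 18 further genes listed, 16 matched an identifier and 3 reached 1 TPM in each library: 9230104L09Rik, Cstl1 and Fetub. Fetub, for fetuin-B, a liver protein that carries cystatin domains, was at 7.54 TPM in library 2, against 2.88 TPM in library 1. The other matched genes, stefins, kininogens and relatives, held at most 20 counts in a library, and 7 of them, Cst10 among them, held 0 counts in both, which allows up to 3 counts per library. Of the 5 with enough counts, 0 were called higher in library 2 and 2 lower, against 30.2% and 18.6% of all genes tested. These were 9230104L09Rik at -1.23 and Csta1, which had 2 counts in library 2, against 10 in library 1. With the GC trend removed they stood at -0.55 and -1.07, and neither was called.

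The proteases that cystatins hold in check were widely present. Of 11 genes for cysteine cathepsins and legumain, 10 reached 1 TPM in both libraries, and together they made up 1304 TPM in library 2, against 753 TPM in library 1. Ctsl, a lysosomal endopeptidase, was at 405 TPM in library 2, against 235 TPM in library 1. Ctsb, which also trims protein ends, was at 296 TPM in library 2, against 100.2 TPM in library 1. The aminopeptidase Ctsh was at 180 TPM in library 2, against 129 TPM in library 1. Ctsc, which activates granule proteases and is a known target of cystatin F, was at 84.4 TPM in library 2, against 121 TPM in library 1. Lgmn, the asparaginyl protease legumain, was at 89.4 TPM in library 2, against 39.5 TPM in library 1. Ctss, Ctsz, Ctso, Ctsf and Ctsk lay between 10.2 and 77.8 TPM in both libraries. Ctsw, a cathepsin of cytotoxic lymphocytes, was at 0.86 TPM in library 2, against 0.28 TPM in library 1, below the other 10. The most abundant protease, Ctsl, thus lay above Cstb in both libraries, and below Cst3 in library 2 but above it in library 1.

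Of the 11, Ctsf and Ctsz were called higher in library 2, with log2 ratios of 1.28 and 1.98, and Ctsc was called lower at -1.09. These counts stand against the same backgrounds of 30.2% and 18.6%. With the GC trend removed none of the 3 was called, and when scaled to total counts 4 genes were called higher and 0 lower. The median log2 ratio of the 11 was 0.06, against 0.02 over all 18261 genes tested, and that of the 8 tested cystatins was -0.21. With the GC trend removed the median of the 8 turned to 0.52, against -0.0003 over all genes tested.

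**Figure D5:**
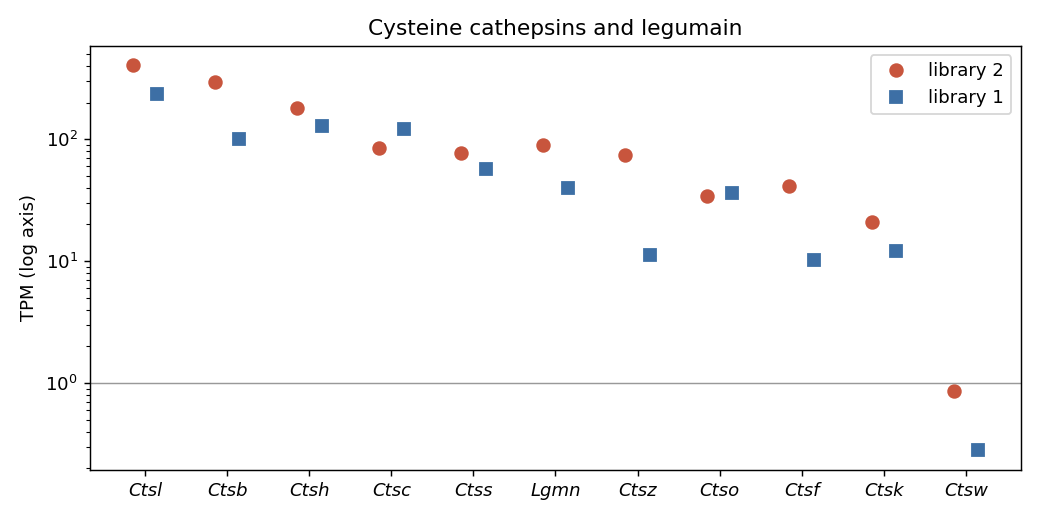
TPM on a log axis for the 11 cysteine cathepsin and legumain genes, ordered by mean level, in library 2 (circles) and library 1 (squares). Ctsl led at 405 TPM in library 2, against 235 TPM in library 1, and Ctsw was the lowest at 0.86 and 0.28 TPM.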

How the data were processed

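Each deposited table lists expected counts (estimated counts), TPM and FPKM, per the file headers. The authors' transcript tables add the percent each isoform holds within its gene. Posterior mean counts and TPM were used as alternatives, and the authors' deposited TPM interval bounds, entered as a score, were not used. Genome build mm10 and annotation M4 are named by the submitters. Alignment and quantification software is not given in the sources used here. Symbols, coordinates, exons and GC content came from GENCODE M21, and 42462 of 43346 mouse identifiers matched.

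Expected counts were rounded. Genes with a sum of at least 10 (18261) were compared by an exact binomial test, with TMM library sizes, 0.5 added for log2 ratios, and Benjamini-Hochberg adjustment. The GC trend was the median log2 ratio in 40 bins. Intervals are 95% exact intervals and cover counting error only. Reads lacking molecular identifiers may repeat a molecule, which these intervals do not allow for. The test was run on simulated data first. The members, lists, rule and alternatives were chosen with earlier results of these data known. The rule named all 9 members, all 11 proteases and the highest genes of 8 other lists, for some of which only sums are printed. Amh, Fshr, Inha, Sox9, Krt1, Krt14, Ivl, Mrc1, Cst10, Fetub and Csta1 were named after their values were seen. Depth was 19256807 and 19954869 expected counts in libraries 2 and 1. Software was R 4.3.3, edgeR 4.0.16, DESeq2 1.42.0 (size factors only), Python 3.11.15, numpy 2.4.6, scipy 1.17.1, pandas 2.3.3, matplotlib 3.10.9 and Biopython 1.88.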

Additional observations from a re-analysis of the deposited data

How the results depend on the processing

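No paired analysis was possible because the labels hold 1 group with 1 biosample. Removal of the GC trend left 1 cystatin called higher in library 2 in place of 2, and 0 proteases called higher and 0 lower in place of 2 and 1. It turned the log2 ratios of Cst8 to 0.0504, Cst11 to 0.052, Cst12 to 0.71, Cst9 to 0.54 and Cst13 to 0.30. Under total-count scaling every log2 ratio shifted by 0.44. This turned Cst9 to 0.094 and Cst12 to 0.37, and gave 4 proteases higher and 0 lower. It also gave 3 cystatins called higher in place of 2, with Cstb at 1.22. Over all genes, 5514 were called higher and 3405 lower. These counts were 6819 and 1197 with total counts, and 1770 and 1575 with the GC trend removed. The cause of these changes was not tested. The number of members with more than 1 transcript at 10% or more ranged from 0 without library 1 to 1 without library 2. DESeq2 size factors and posterior mean counts changed neither the number of cystatins called nor the direction of a log2 ratio. Another pseudocount turned no log2 ratio of a cystatin member, and leaving out the filter gave the same counts of 2 members higher and 0 lower. The reproductive share ranged from 80.8% without library 1 to 96.2% without library 2. With 3 to 45 counts, Cst6, Cst7, Cst9 and Cst13 are limited by depth.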
